A study of Arabidopsis thaliana with 6 samples.

Results

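Rosette leaves from plants of thale cress (Arabidopsis thaliana) given lead in their nutrient solution were compared with leaves of plants grown without added lead. The comparison uses 3 of the 6 arrays of the series: leaves of plants with 25 ppm lead, leaves of plants with 50 ppm lead and control leaves with 0 ppm, 1 array per group. After 50 control probe sets were set aside, 8247 probe sets were left, and the 4422 with a signal of at least 25 on 1 or more leaf arrays were kept. A probe set entered the description when its signal at each dose was at least 2-fold above, or at each dose at least 2-fold below, that of the control leaf array. That held for 100 of the 4422, or 2.26%, with 47 higher (1.06%) and 53 lower (1.20%) in leaves with lead.

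The study grew accession Col-4 (stock N933) in hydroponic culture and asked which genes take part in the uptake of lead, in tolerance and in defence. Plants of both lead groups received lead nitrate on 2 occasions a week apart, with the change of nutrients, from late rosette growth to the first visible flower bud. Control plants are labelled as such, with no lead addition recorded, and all plants were harvested at growth stage 6.00. No mutation or transgene is labelled for any group, the age in days is not labelled, and the number of plants behind each RNA sample is not labelled.

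Lead is not a nutrient. It enters plants mainly through the root, much of it is held there on the cell wall, and only a part moves to the leaf. In plant cells it binds thiol groups and displaces other metals, and it is known to raise reactive oxygen species. Plants bind such metals with glutathione and phytochelatins, which are built from assimilated sulfate. Rapid transcription factors of the zinc-finger and WRKY families, heat shock chaperones and wall-modifying enzymes are commonly studied parts of leaf stress responses. Senescence, the ordered recycling of an ageing leaf, shares some of these regulators.

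The values are linear signals as deposited, with a trimmed mean near 100 on every array. Average backgrounds were 69.03 and 75.36 on the 25 and 50 ppm leaf arrays, against 85.32 on the control leaf array. Across the 9 hybridisation spike-in probe sets, 8 were higher on the 25 ppm leaf array than on the control leaf array, with a median ratio of 1.71, while the median ratio for the 50 ppm array was 0.916. The ratio of 3′ to 5′ signal of GAPDH, a measure of RNA integrity, was 2.03 and 1.40 on the 25 and 50 ppm leaf arrays and 1.97 on the control leaf array. The same ratio of ubiquitin was 2.83 and 2.74 with 25 and 50 ppm and 2.41 in control leaves, so at 50 ppm the 2 ratios differed from the control in opposite directions. The 8 probe sets of 5 leaf marker genes, all photosynthetic, summed to 36539 and 27616 in the leaves with 25 and 50 ppm and to 26029 in control leaves. They summed to 99.7 to 160.5 in the 3 root arrays, so the leaf label fits the markers. The 7 root marker probe sets summed to 41.2 and 34.0 with 25 and 50 ppm and to 23.9 in control leaves, none was kept, and they summed to 8414.5 to 10161 in roots. Flower markers had no named probe set here, so flower tissue in the harvest could not be checked.

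Signals under 8 were raised to 8 before log2 was taken, so a fold against such a value is given as at least that large. No group has a replicate array, so the values below have no standard deviation, and the rule of size is a description without a test. The changes at both doses are measured from the same control array, so a deviation of that array enters both. In whole-leaf RNA, fewer cells of a type and less RNA per cell cannot be told apart.

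At 25 ppm alone, 115 probe sets were at least 2-fold higher (2.60%) and 160 lower (3.62%) than in control leaves. At 50 ppm alone, 219 were higher (4.95%) and 185 lower (4.18%). The lead-treated leaf arrays also differed from each other. Of the 4422 probe sets, 199 were at least 2-fold higher and 175 at least 2-fold lower at 50 than at 25 ppm. In opposite directions at the 2 doses, 6 of the 4422 differed at least 2-fold from the control. A deviation of the shared control array moves both changes the same way, so nothing is read from that low count. Over all 4422 kept probe sets the median log2 change was 0.06 at 25 ppm and 0.09 at 50 ppm. The plot of both changes shows the 100 probe sets against the others.

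**Figure D1:**
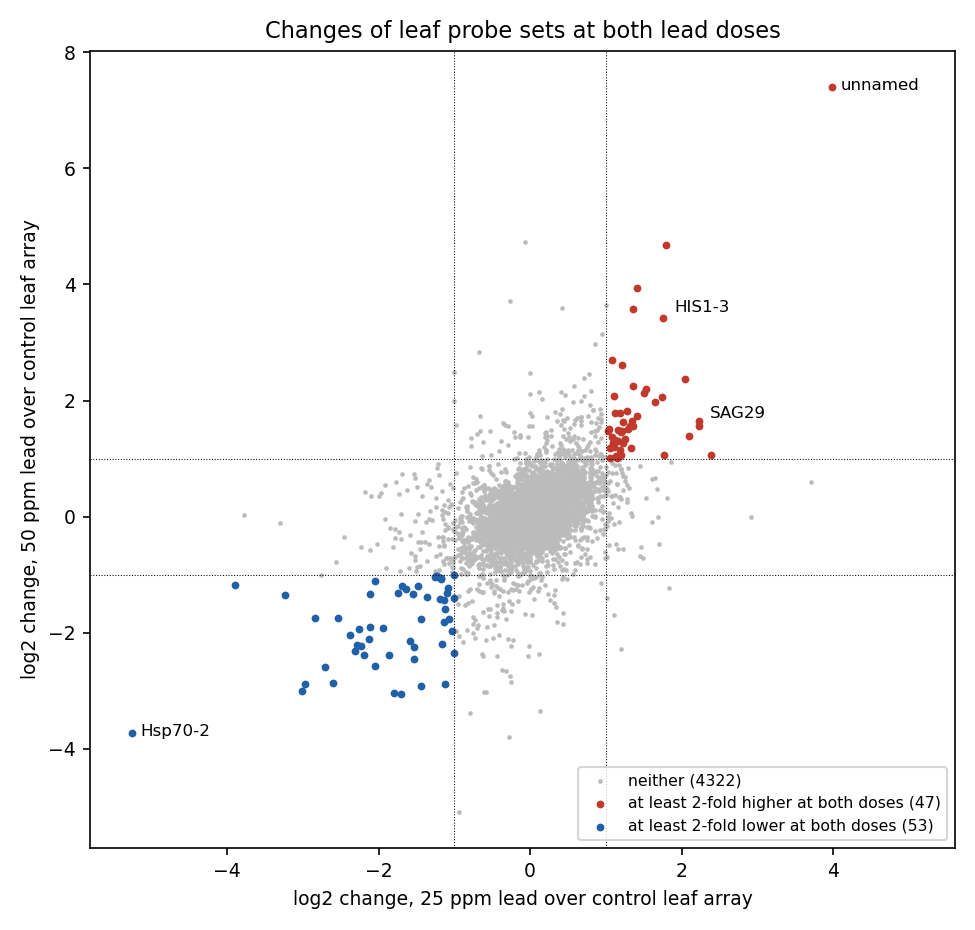
Each point is a kept probe set, placed by its log2 change from the control leaf array at 25 ppm (x axis) and at 50 ppm lead (y axis); dotted lines mark 2-fold. The 47 probe sets higher at both doses (red) and the 53 lower at both (blue) are set against 4322 others (grey), and both axes share 1 control array.

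The 4422 kept probe sets were also fitted with limma, in which the 25 and 50 ppm arrays of an organ stood together as lead. Of these, 0 passed an adjusted p of 0.05 (0%), the lowest adjusted p was 0.95, and the unadjusted p was under 0.05 for 134, against the 221.1 that chance alone would give. The fit has 2 residual degrees of freedom, both taken from how the lead arrays of an organ differ, and any real effect of dose is counted in that error.

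Of the 100 probe sets, 42 name exactly 1 gene. Among the 1862 kept probe sets with such a name, 18 were higher (0.967%) and 24 lower (1.29%), which cover 15 and 21 loci. The tables used for naming hold symbols and synonyms but no descriptions, so 10 of the 15 higher loci and 15 of the 21 lower loci have only their locus as symbol. Functions are given, as background knowledge, for the 5 higher and 6 lower loci with a symbol of their own and for AT5G64120, which has a peroxidase name among its synonyms. The other 58 probe sets carry no single gene name here. A probe set whose name carries the s suffix may also detect related genes. Among the 42 these are the probe sets of HIS1-3, AT5G64120, AT2G43590 and AT2G20670, and 1 each for Hsp70-2 and ATPMEPCRB.

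The higher genes with a named function were a linker histone, a sugar exporter of senescing leaves, 2 glycosyltransferases and a putative wall-polysaccharide acetyltransferase. HIS1-3 (AT2G18050) encodes a linker histone H1 variant known to be induced by drought and abscisic acid. Its signal was 13.5 in control leaves, 45.3 with 25 ppm lead and 145.4 with 50 ppm. The difference was thus 3.36-fold at the lower and 10.8-fold at the higher dose, and the 50 ppm value stood well above the other 2. In limma its mean log2 change was 2.59 with a standard error of 1.15 (adjusted p = 0.996). In roots HIS1-3 measured 10.8, 10.4 and 53.4 in dose order, so there only the 50 ppm array differed.

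SAG29 (AT5G13170), also called SWEET15, exports sucrose and is known to be strongly expressed in senescing leaves. It measured 2.2 in control leaves, under the floor, with 37.3 at 25 ppm and 25.0 at 50 ppm. That is at least 4.66-fold and at least 3.13-fold higher, and it was larger at the lower dose. The mean log2 change in limma was 1.93 with a standard error of 0.62 (adjusted p = 0.996).

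Among glycosyltransferases, UGT85A2 (AT1G22360), a transferase of the family that attaches glucose to small molecules, measured 89.0 in control leaves, 195.9 with 25 ppm lead and 184.0 with 50 ppm. Both leaves with lead were near the same level, 2.20-fold and 2.07-fold above the control. GPT (AT2G41490), which starts the assembly of the dolichol-linked sugar chain for N-glycosylation, measured 6.7, 34.2 and 20.9 in dose order on 1 probe set. Its other 2 probe sets were brighter and did not meet the rule, at 80.6, 86.4 and 107.4 for the first and 112.2, 96.0 and 141.1 for the second. The probe sets of GPT therefore do not give 1 answer.

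TBL45 (AT2G30010) belongs to the TRICHOME BIREFRINGENCE-LIKE family, whose studied members acetylate cell wall polysaccharides. It was the brightest named gene of the higher group, with 163.6 in control leaves, 401.3 with 25 ppm lead and 463.7 with 50 ppm. The leaves with lead were 2.45-fold and 2.83-fold higher, and roots lay between 59.1 and 69.9 at all 3 doses. Its mean log2 change in limma was 1.40 with a standard error of 0.32 (adjusted p = 0.996).

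The other 10 higher loci have no function in the tables. AT2G24280 had 4 probe sets, and all of them met the rule, though none did with an offset of 16 in place of the floor. Its brightest probe set measured 41.1 in control leaves, 89.0 with 25 ppm lead and 141.2 with 50 ppm, and the 4 were between 2.17-fold and 2.42-fold higher at 25 ppm. AT2G36970 measured 23.9, 50.3 and 154.5 in dose order, a 6.46-fold difference at 50 ppm. AT4G27900 had a like pattern, with 19.5, 45.1 and 118.7.

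AT5G61520 measured 62.8 in control leaves, 146.7 with 25 ppm lead and 150.8 with 50 ppm, while all 3 root arrays were under the floor. AT4G14020 measured 27.0, 71.5 and 89.4 in dose order and was the only named higher gene that met the same rule in roots, where it measured 17.4, 43.4 and 37.9. AT1G11700 was under the floor in control leaves at 7.5 and measured 26.8 and 33.3 at 25 and 50 ppm. By the rule, the control was the lowest leaf array in each of these genes.

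The remaining 4 were dim, with every leaf signal under 60. AT1G23205 measured 9.1, 30.8 and 19.1 in dose order and AT2G27360 measured 10.0, 25.1 and 22.6. AT2G46420 measured 20.7, 42.7 and 59.1, and AT4G31640 measured 23.0, 47.9 and 46.4. AT4G31640 lies just inside the threshold, with a smaller log2 change of 1.01, beside AT2G19650 just outside at 0.98.

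**Figure D2:**
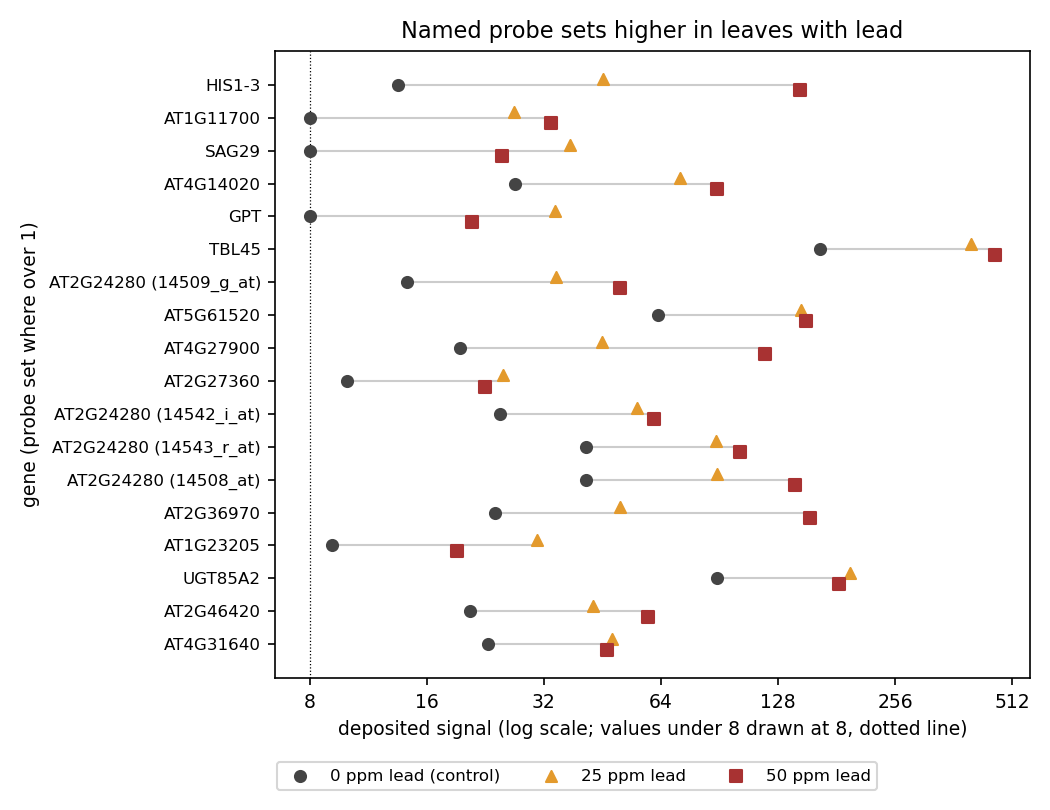
Deposited signal (log axis, values under 8 drawn at 8) of the 18 named probe sets that were higher in leaves with lead, at 0 ppm (circles), 25 ppm (triangles) and 50 ppm (squares), 1 array each. TBL45 has the brightest control signal of the 18, at 163.6, and the widest gap is that of HIS1-3 between 13.5 and 145.4.

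With an offset of 16 added in place of the floor, 13 of the 18 named probe sets missed the rule, and those of HIS1-3, SAG29, TBL45, AT4G14020 and AT5G61520 still met it. With the floor at 16, SAG29, GPT, AT1G11700, AT1G23205 and AT2G27360 missed it, and after quantile normalization AT1G23205, AT2G46420 and AT4G31640 did.

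Over all 47 higher probe sets the median log2 change was 1.25 at 25 ppm and 1.55 at 50 ppm, and 36 differed more at 50 than at 25 ppm. That lean is not particular to the 47. Of all 4422 kept probe sets, 219 were at least 2-fold higher at 50 ppm (4.95%) and 115 at 25 ppm (2.60%). The control signals of the 47 were low, with a median of 19.5 and a range of 1.5 to 326.8, and 7 lay under the floor. A higher probe set could be kept through its lead arrays alone, whereas a lower one needed a control signal of at least 25. The control levels of the higher and lower probe sets are therefore set apart by the filter and the rule. A mean leaf signal of at least 100 was reached by 13 of the 47, against 1970 of all 4422 kept probe sets. Only 2 of the 47 were at least 4-fold higher at both doses, and both have no gene name. The first measured 1.5 in control leaves, 126.0 with 25 ppm lead and 1354.1 with 50 ppm, at least 15.8-fold and at least 169-fold higher. It was at least 2-fold higher in roots as well, with 127.3, 2140.0 and 1759.8 in dose order. The second measured 80.7, 333.2 and 419.3 in leaves and no more than 2.0 on any root array.

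The lower genes with a named function were a chaperone, a copper chaperone, 2 stress transcription factors, a peroxidase, a pectin methylesterase and a tetraspanin. Hsp70-2 (AT5G02490), a heat shock protein of the Hsp70 family that helps other proteins fold, differed most. One probe set measured 321.5 in control leaves, 8.4 with 25 ppm lead and 24.2 with 50 ppm. That is 38.3-fold and 13.3-fold lower, but 8.4 lies just above the floor of 8, so the larger fold rests on a near-floor signal. The other probe set, which may also detect related genes, measured 64.2 in control leaves and 1.7 and 1.0 at 25 and 50 ppm. That is at least 8.03-fold lower at both. For the first the mean log2 change in limma was -4.50 with a standard error of 0.67 (adjusted p = 0.95), and for the second the adjusted p was 0.996. In roots the first probe set went the other way, with 41.7, 88.3 and 115.7 in dose order.

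CCS (AT1G12520) hands copper to copper/zinc superoxide dismutase, an enzyme that removes superoxide. It measured 468.0 in control leaves, 96.2 with 25 ppm lead and 100.5 with 50 ppm, so both leaves with lead lay near 100, 4.86-fold and 4.66-fold below the control. The mean log2 change in limma was -2.25 with a standard error of 0.34 (adjusted p = 0.95). In roots CCS measured 300.3, 202.4 and 151.4 in dose order, lower with lead but short of 2-fold at 25 ppm. It is the only gene of the copper and superoxide dismutase list that has a named probe set here, so the enzymes it serves could not be described.

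ZAT7 (AT3G46090), a zinc-finger transcription factor with a repressor motif that is studied in salt and oxidative stress, was lower on both of its probe sets. The brighter one measured 78.8 in control leaves, 10.1 with 25 ppm lead and 10.7 with 50 ppm, 7.80-fold and 7.36-fold lower. The dimmer one measured 39.6 in control leaves and was under the floor at both doses, at least 4.95-fold lower. WRKY53 (AT4G23810), a transcription factor known to promote leaf senescence and to act in defence, measured 175.0, 58.4 and 39.5 in dose order. It was 3.00-fold and 4.43-fold lower at 25 and 50 ppm, with a mean log2 change of -1.87 and a standard error of 0.37 in limma (adjusted p = 0.996). WRKY53 was dim in roots, between 21.4 and 26.6.

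In the wall, ATPMEPCRB (AT4G02330), also called PME41, removes methyl groups from pectin. Its probe sets measured 157.4 and 114.5 in control leaves, 48.3 and 42.2 at 25 ppm, and 19.0 and 15.1 at 50 ppm. It was thus lower at 50 than at 25 ppm on both, 8.28-fold and 7.58-fold below the control. AT5G64120, peroxidase 71 of the secreted class III family, measured 37.5 in control leaves and was under the floor at both doses, at 6.6 and 6.4. TET8 (AT2G23810), a tetraspanin of the cell membrane that marks secreted vesicles, was the brightest named gene of the lower group. It measured 750.0, 319.2 and 370.5 in dose order, 2.35-fold and 2.02-fold lower.

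The other 14 lower loci have no function in the tables. AT2G32210 measured 73.9 in control leaves, 14.3 with 25 ppm lead and 18.0 with 50 ppm, and in roots it went the other way with 18.1, 42.9 and 207.5. AT2G18690 measured 673.0, 334.4 and 132.0 in leaves and 140.5, 458.4 and 701.4 in roots. In both genes the control was the highest leaf array, as the rule requires, and the lowest root array. AT2G20670 was bright as well, with 539.5 in control leaves, 257.4 with 25 ppm lead and 159.7 with 50 ppm.

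Some were low at both doses alike. AT4G03450 measured 85.8 in control leaves, 22.4 with 25 ppm lead and 22.8 with 50 ppm, and AT2G42360 measured 63.2, 14.6 and 16.9. AT1G62480 measured 172.0, 76.4 and 82.6 in leaves and was far brighter in roots, with 2015.3, 1186.6 and 653.2. AT1G03370 measured 12.5 and 12.3 at 25 and 50 ppm, 2.56-fold and 2.60-fold below the control, while its other probe set, at 4.5, 5.6 and 6.8 in dose order, was under the floor throughout and was not kept. AT2G43590 measured 193.5, 66.6 and 76.8 on 1 probe set, while its other one, at 65.9, 42.1 and 40.0, did not meet the rule.

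Others were lower at 50 than at 25 ppm. AT4G34150 measured 117.8 in control leaves, 53.8 with 25 ppm lead and 33.6 with 50 ppm, and AT1G24140 measured 86.5, 39.8 and 28.7. AT4G39670 measured 37.8, 13.1 and 3.6, AT4G39830 measured 33.4, 16.4 and 8.5, and AT1G59910 measured 29.6, 13.4 and 10.9. AT1G62422, at the edge of the rule, measured 192.5, 95.9 and 72.7, a smaller log2 change of -1.01, beside AT4G29950 just outside at -0.97.

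**Figure D3:**
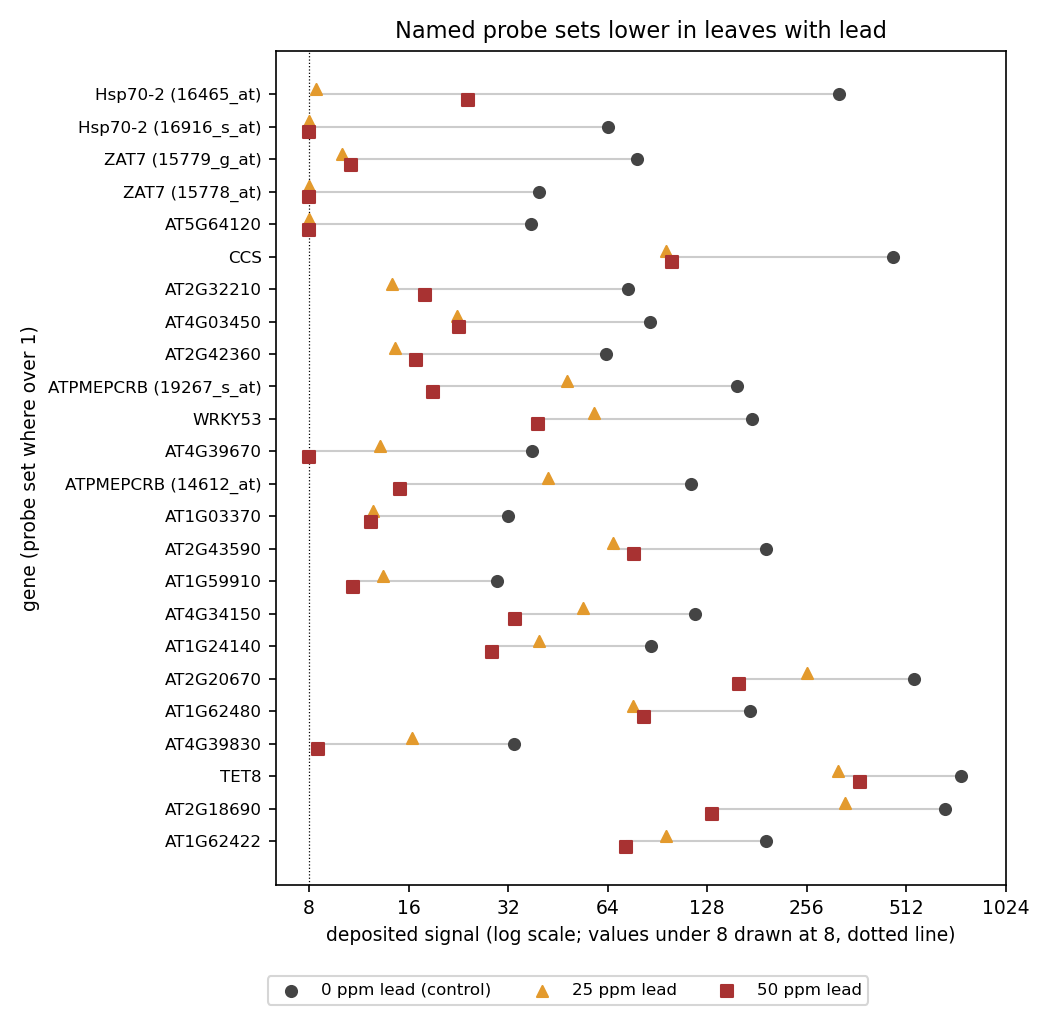
Deposited signal (log axis, values under 8 drawn at 8) of the 24 named probe sets that were lower in leaves with lead, at 0 ppm (circles), 25 ppm (triangles) and 50 ppm (squares), 1 array each. By the rule, the control is the rightmost point in each row, and Hsp70-2 spans the widest gap, 8.4 at 25 ppm against 321.5 in control leaves.

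With the offset of 16, 10 of the 24 named probe sets missed the rule, while those of Hsp70-2, ZAT7, CCS, WRKY53, ATPMEPCRB and AT5G64120 met it. TET8, AT2G18690 and AT1G62422 missed it after quantile normalization, and AT1G59910 with the floor at 16.

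Over all 53 lower probe sets the median log2 change was -1.64 at 25 ppm and -1.81 at 50 ppm. Of these, 26 differed more at 25 ppm, 24 more at 50 ppm and 3 were tied at the floor. Of all 4422 kept probe sets, 185 were at least 2-fold lower at 50 ppm (4.18%) and 160 at 25 ppm (3.62%). The control signals of the 53, all at least 25 by the filter and the rule, had a median of 117.8 and a range of 29.6 to 2376.0. Of the 53, 12 were at least 4-fold lower at both doses. A mean leaf signal of at least 100 was reached by 17 of the 53, against 1970 of all 4422 kept probe sets. Among the lower probe sets without a gene name, the one with the largest smaller change measured 181.1, 29.8 and 24.9 in dose order and the next 52.2, 3.9 and 8.7.

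By mean leaf signal, the share that met the rule ran from 1.66% to 2.62% in the bins between 25 and 500, with no steady trend, and was 0.707% of 566 at 500 or more. Below a mean of 25 it was 6.65% of 316. A probe set in that bin had at least 1 leaf array at 25 or more and at least 1 under 25. The filter itself thus picked arrays that differ there, and nothing is read from its share. Probe sets with any letter suffix made up 31.0% of the 100 and 28.7% of all kept probe sets, but not every suffix marks possible cross-hybridisation. The s suffix, which does mark it, was carried by 19.0% of the 100 and 21.0% of all kept probe sets. Of the 7 loci among the named genes that had more than 1 probe set, 4 met the rule on all of them, and of their 17 probe sets 13 met it. Each of the 7 is included because at least 1 of its probe sets met the rule, so these counts do not measure agreement between probe sets.

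The gene lists for this tissue and treatment are thinly covered: 16 of 39 had at least 3 kept probe sets, 13 had 1 or 2 and 10 had none. The lists for phytochelatin synthases and metallothioneins and for lead and cadmium transport had no named probe set. Lists built on search words read symbols and synonyms alone, so a gene with only a locus as symbol can be missing. The list of rapid stress regulators had 5 kept probe sets of 3 genes, of which 3 were lower and 0 higher at both doses, with median log2 changes of -1.58 and -2.15 at 25 and 50 ppm. All 5 had negative changes at both doses, as had 1165 of all 4422. The remaining 2 belong to STZ (AT1G27730), a zinc-finger repressor of the abiotic stress response, at 276.9, 135.3 and 143.4 for the first and 377.2, 247.7 and 210.8 for the second. WRKY53 and ZAT7, described above, make up the rest, and the list was chosen with their values known.

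Other WRKY factors did not share that size of difference at both doses. Of 7 kept WRKY probe sets, WRKY53 was the only one that met the rule, and the medians were -0.08 and -0.46. WRKY22, a defence regulator, measured 132.2, 125.0 and 67.1 in dose order. WRKY6, which acts in senescence and defence, measured 110.5, 92.8 and 35.7, below the control at both doses but past 2-fold at 50 ppm only. WRKY20 measured 27.2, 30.1 and 53.5. The list of senescence genes had 3 kept probe sets, SAG29 higher, WRKY53 lower and WRKY6 neither, so it gave no single direction.

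Drought, cold and abscisic acid genes had their larger median at the lower dose. Of 7 kept probe sets, HIS1-3 was the only one that met the rule, and the median log2 change was 0.78 at 25 ppm and 0.14 at 50 ppm, the second of which was 0.00 after quantile normalization. COR15B, a protein of chloroplasts that protects membranes in the cold, measured 1592.4 in control leaves, 3222.9 with 25 ppm lead and 2218.1 with 50 ppm. LTI30, a dehydrin, measured 118.6, 235.1 and 78.1. Both were highest at 25 ppm, and LTI30 was lowest at 50 ppm.

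Sulfate assimilation supplies the cysteine of glutathione and phytochelatins. It had 3 kept probe sets, of which 0 met the rule, with median log2 changes of 0.68 and 1.05. APS3, an ATP sulfurylase that starts the pathway, measured 223.7, 405.4 and 464.6 in dose order, and APS4, another of that family, measured 86.4, 138.0 and 283.3. SIR, the sulfite reductase, measured 155.7, 189.9 and 238.1. In all 3 the control array was lowest and the 50 ppm array highest, but each was under 2-fold at 25 ppm. Changes were positive at both doses for 1739 of all 4422 kept probe sets, so no result about the pathway is read from these 3. Their probe sets carry the s suffix and may also detect related genes. The list medians were 0.68 and 1.10 after quantile normalization.

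Photosynthesis genes did not meet the rule on any of their 9 kept probe sets. Their median log2 change was 0.44 at 25 ppm and 0.12 at 50 ppm, and 0 at both after quantile normalization. RCA, which activates Rubisco, measured 3012.9 in control leaves, 4182.6 with 25 ppm lead and 3362.7 with 50 ppm, and the antenna protein LHCB4.1 measured 4639.8, 6276.2 and 5114.1. The spike-in probe sets given above were also brightest on the 25 ppm array, and the part of that in these values was not tested.

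Enzymes that remove hydrogen peroxide had 6 kept probe sets, 0 of which met the rule, with medians of -0.07 and -0.23. Glutathione transferases had 3 with 0, at -0.20 and 0.44, and thioredoxins and glutaredoxins had 6 with 0, at -0.04 and -0.39. Cytochromes P450 had 3 with 0, at -0.16 and -0.11. With 2.26% of all kept probe sets meeting the rule, counts of 0 in lists of this size are no result about them.

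Wall-loosening expansins and xyloglucan enzymes had 9 kept probe sets, 0 of which met the rule, with medians of 0.03 and -0.21, and 0.02 and -0.35 after quantile normalization. EXPA8, the brightest of these, measured 588.8, 614.8 and 555.9 in dose order, and EXGT-A3 measured 381.8, 354.3 and 506.9. EXPB1 measured 128.4, 127.6 and 52.1 and EXPA4 measured 168.5, 168.0 and 84.0, so EXPB1 and EXPA4 were well below the control only at 50 ppm. Of 10 kept probe sets in the glycosyltransferase list, UGT85A2 alone met the rule. That list does not hold GPT and can miss family members that have only a locus as symbol. The medians were 0.45 and 0.37, and 0.41 and 0.21 after quantile normalization. UGT72E1, which glucosylates lignin precursors, measured 238.8, 389.1 and 379.6, while UGT87A2 measured 175.8, 61.2 and 105.0. Histones had 5 kept probe sets with HIS1-3 the only one that met the rule, at -0.18 and -0.29. Ubiquitin and proteasome genes had 7 with 0, at -0.03 and 0.12; the first of these was 0.01 after quantile normalization.

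The list of heat shock proteins and chaperones held 3 kept probe sets and all were lower, but 2 are those of Hsp70-2 and the third is CCS, a metal chaperone found by the word in its name. It therefore says no more than those genes do.

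**Figure D4:**
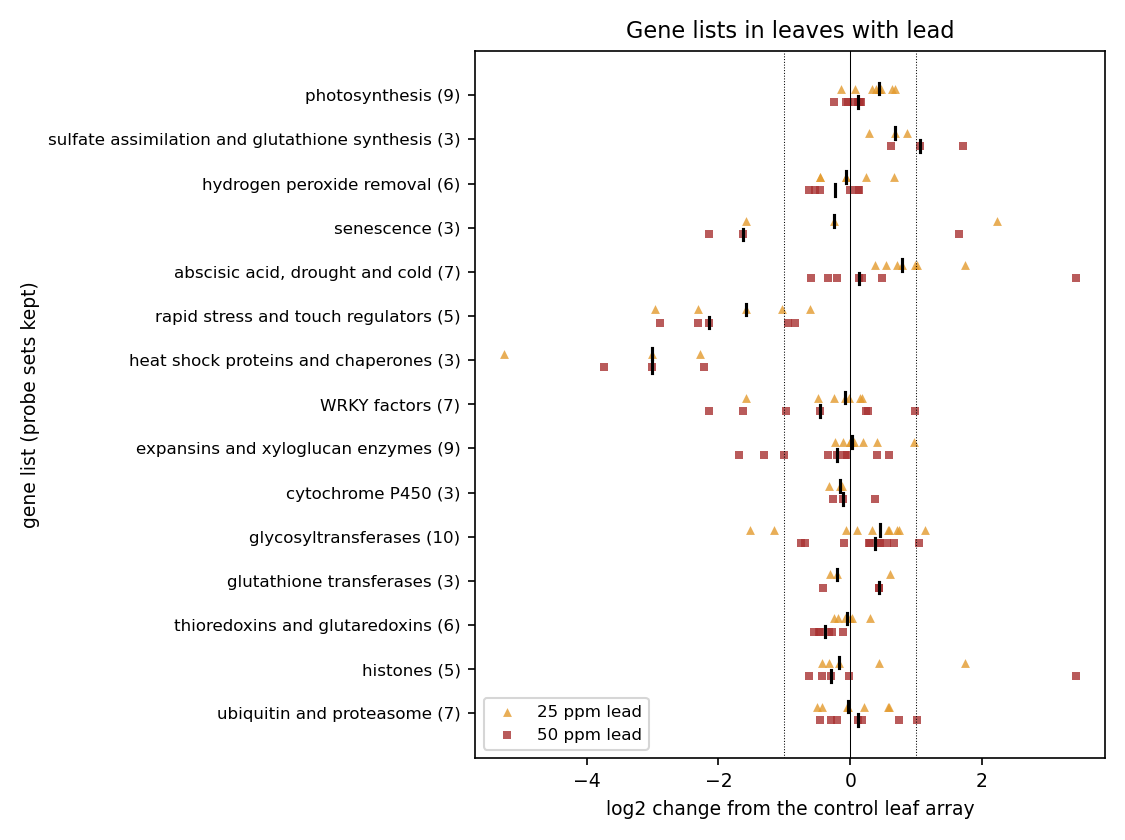
Log2 change from the control leaf array of every kept probe set (points) in each list with at least 3 of them other than the leaf markers, at 25 ppm and at 50 ppm lead, with the list's median. The rapid stress regulators have medians of -1.58 and -2.15, but that list was chosen with its values known and 3 of its 5 probe sets are among those already selected as lower; the photosynthesis medians are 0.44 and 0.12.

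Levels of the same 100 probe sets in roots were set beside the leaf values. The root arrays are of plants with 25 and 50 ppm lead and a 0 ppm control, and the 50 ppm root array had an average background of 192.65, the highest of the 6. Over the 4422 probe sets, 104 were at least 2-fold higher in roots at both doses (2.35%) and 68 lower (1.54%). Of the 47 probe sets higher in leaves, 5 were higher (10.6%) and 3 lower (6.38%) in roots, and the other 39 met neither. These 5 are 4.81% and the 3 are 4.41% of the higher and the lower root list.

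Of the 53 lower in leaves, 6 were higher in roots (11.3%, or 5.77% of that root list) and 0 were lower. Those 6 include Hsp70-2, AT2G32210 and AT2G18690. The median root change of the 53 was 0.00 at 25 ppm and 0.66 at 50 ppm, against 0 at both over all kept probe sets. On all root arrays, 8 of the 47 higher and 6 of the 53 lower probe sets were under the floor, against 237 of 4422 kept probe sets (5.36%). A signal of 25 was reached on at least 1 root array by 30 of the 47 and 40 of the 53. The share over all kept probe sets was not taken for that count, so nothing is read from it.

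**Figure D5:**
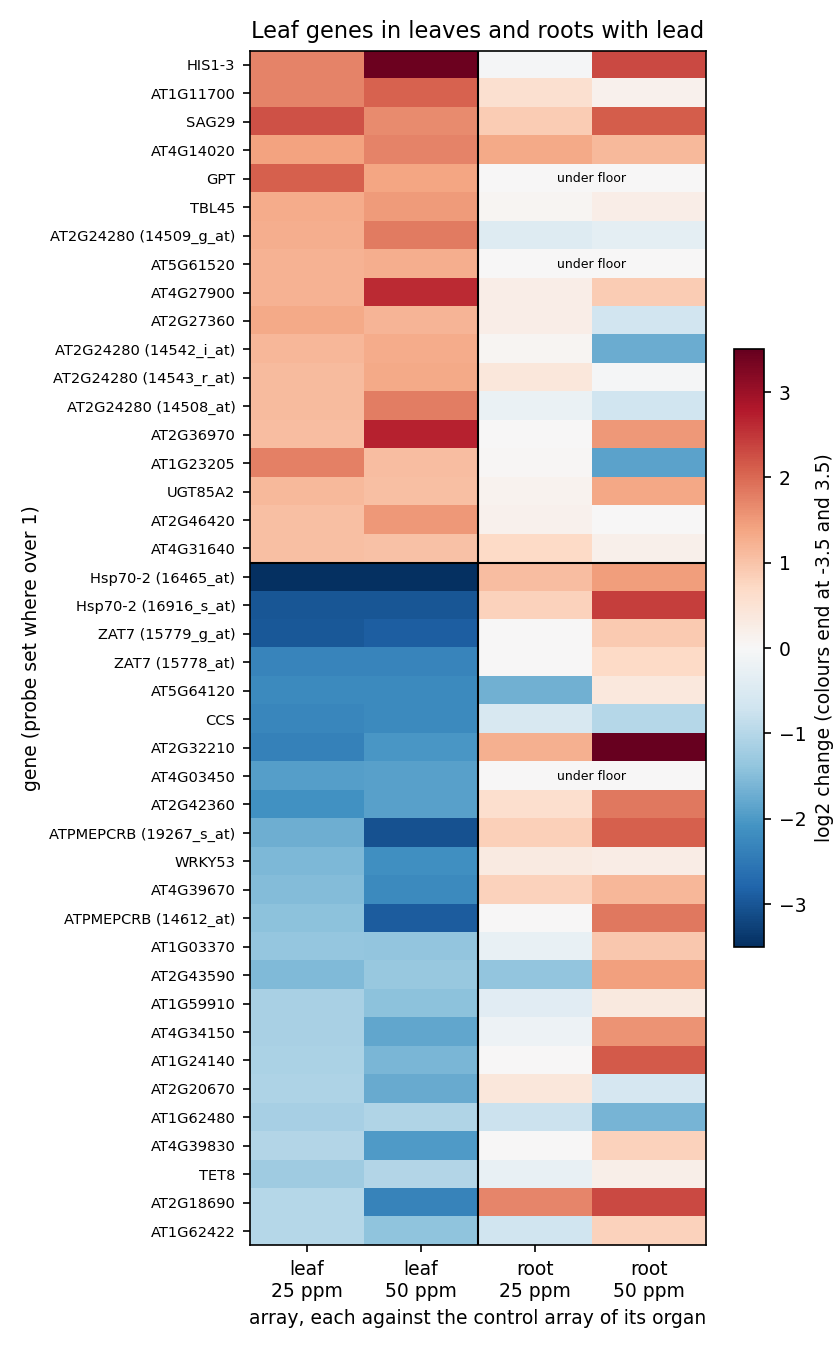
Log2 change from the control array of the same organ for the 42 named probe sets, in leaves (left columns) and roots (right columns) at 25 and 50 ppm lead, with colour for direction and size. Hsp70-2, AT2G32210 and AT2G18690 are lower in leaves and higher in roots; AT4G14020 is higher in both.

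At the threshold, the nearest probe sets differed little. The 3 just inside had smaller log2 changes of 1.005 to 1.02 among the higher and all -1.01 among the lower, and the 3 just outside had 0.98 to 0.996 and -0.95 to -0.999.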

How the data were processed

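The authors' deposited values are linear intensities, 1 per probe set and array, from an Affymetrix Arabidopsis array with 8297 probe sets hybridised with biotin-labelled cRNA from total RNA, per the labels. The software and settings that made them are not given in the sources used here. Each group has 1 array, so the number of arrays limits the precision. All value columns were matched to samples by their labels.

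Deposited intensities were used as they stand, raised to a floor of 8, and taken to log2. Probe sets were named through the platform annotation and RefSeq (TAIR10.1, 38312 genes): 3784 named 1 gene, 70 several, 10 a gene not in RefSeq and 4383 none. The calls are at least 2-fold at both doses, with Python 3.11.15 and pandas 2.3.3. The limma 3.58.1 fit in R 4.3.3 used its lmFit function and trended eBayes, two-sided, with Benjamini-Hochberg adjustment over 4422 probe sets, on all 6 arrays grouped by organ and lead. The code was tested on simulated data.

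The members, lists and naming rule were chosen with earlier results of these data known. Genes named are up to 20 each way by the smaller change of both doses, up to 4 per list, and the 3 nearest the threshold on each side; AT1G62422 came under the last. A few unnamed probe sets were chosen after their values were seen. Alternatives were other scalings, floors, filters and folds, and leaving out each lead array. Sequences and genome positions were not used here.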

Additional observations from a re-analysis of the deposited data

Results flagged for a closer look

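For 9 of the 100 probe sets both leaf arrays with lead lay at least 2-fold on one side of the control and both root arrays with lead at least 2-fold on the other. Another 5 were higher and 0 were lower in both organs. Of all 4422 kept probe sets, 104 were higher (2.35%) and 68 lower (1.54%) in roots at both doses. The 9 were picked for opposite changes, so their differences between the organs are large by that choice. The difference between the organs was not tested, and each organ has 1 control array. Among named genes, Hsp70-2 had a mean log2 change of -4.50 in leaves and 1.28 in roots, a difference of -5.77. AT2G32210 had -2.20 in leaves and 2.38 in roots, a difference of -4.59. AT2G18690 had -1.68 in leaves and 2.01 in roots, a difference of -3.69.

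The other 6 have no gene name. Of these, 3 were higher in leaves and lower in roots, with leaf minus root differences of 5.05, 4.90 and 2.35. The other 3 were lower in leaves and higher in roots, with differences of -4.23, -3.77 and -4.38. The 50 ppm root array, with its high background, enters each of these values.

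Spike-in controls, which are added to the hybridisation and belong to no plant gene, were brighter on the 25 ppm leaf array, with a median ratio of 1.71 to the control leaf array. Their part in the leaf results was not tested.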

How the results depend on the processing

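The 2-fold counts were 100 in all, 47 higher and 53 lower. With an offset of 16 in place of the floor they were 46, 13 and 33, with 28.3% higher against 47% before. At a mean leaf signal of at least 100 they were 30, 13 and 17 of 1970. A 1.5-fold rule gave 381, 214 and 167, and a 3-fold rule gave 27, 7 and 20. Leaving out a lead array, so that 1 dose decides, gave 265 to 396 in all, 114 to 214 higher and 151 to 182 lower; the low ends are without the 50 ppm array and the high ends without the 25 ppm array. Trimmed-mean scaling, quantile normalization, floors of 4 and 16 and no filter kept the counts within 1.5 times. Quantile normalization lowered the share that was higher to 38.7%. In limma 0 passed, also with trimmed-mean scaling or a floor of 16, while 22 passed without a filter. There, 21 passed without the 25 ppm leaf array and 6 without the 50 ppm leaf array (6 to 21), with 1 residual degree of freedom left; that fit takes the spread of the single remaining lead-treated leaf array from the root arrays. Of the 42 named probe sets, 18 met the rule in each alternative that kept them, and 24 missed it in 1 or more, 23 of them with the offset. None of the 42 changed direction in these alternatives. They had been selected as at least 2-fold changed the same way at both doses. Another floor, an offset or leaving out 1 dose cannot reverse such a change, so no support is drawn from this. Dim signals limit the folds, since values under 8 give bounds. No paired analysis was possible because each group has 1 array, so the groups compared share only 1 replicate number.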

Other observations

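Other genes of the lists differed at 1 dose alone or at neither. The chitinase gene CHI (AT2G43570), of a family that cuts fungal wall chitin, measured 297.6 in control leaves, 54.3 with 25 ppm lead and 234.4 with 50 ppm, so it was low on the 25 ppm array only. GSTF3, a glutathione transferase, measured 1136.3, 921.3 and 1540.5 in dose order. TRXF2, a chloroplast thioredoxin, measured 1383.6, 1303.9 and 1146.4 and lay within 2-fold of the control at both doses.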
